A study of Mus musculus with 8 samples.

Results

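The insulin and IGF1 receptor signaling core, as described here, is a group of 10 genes: the ligand *Igf1*, the receptors *Insr* and *Igf1r*, the receptor substrates *Irs1* and *Irs2*, the receptor brake *Grb10*, the PI3-kinase subunit *Pik3r1* and the kinases *Pdpk1*, *Akt1* and *Akt2*. The genes were chosen by name, and each name matched a row among the 32390 of the count table. All 10 passed the filter on low counts and were among the 12725 rows tested. Gastrocnemius, a calf muscle made mostly of fast fibers, was taken from 4 Nox4 fl/fl control mice and 4 MckCre:Nox4 fl/fl mice, here called NOX4-deficient, and its poly(A) RNA was sequenced. Both genotypes carried the floxed *Nox4* alleles. The Cre of the second genotype is driven by the muscle creatine kinase promoter, active in skeletal and less in heart muscle, so that the other cells of the tissue keep *Nox4*. All mice were males of 21 months fed standard chow, with 1 mouse per library, and the labels place the 8 libraries in 1 batch.

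Insulin and IGF1 bind related receptor tyrosine kinases, which phosphorylate the docking proteins IRS1 and IRS2. The docking proteins recruit PI3-kinase, and the lipid that PI3-kinase makes brings PDK1 and AKT to the membrane, where PDK1 activates AKT. In skeletal muscle this chain drives glucose uptake, glycogen and protein synthesis, and holds the FOXO transcription factors out of the nucleus.

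Each library held between 16350548 and 19804661 counts on genes. The summed share of 10 muscle markers ran from 131000 to 154000 CPM (counts scaled to a common library total) in control and from 145000 to 166000 CPM in NOX4-deficient libraries, so that both genotypes were muscle by these markers. *Nox4* itself measured 5.09, 2.47, 1.87 and 3.64 CPM in the control mice, replicates 1 to 4, against 1.74, 2.17, 2.21 and 2.17 CPM in the NOX4-deficient mice. Its log2 fold change of -0.65 did not pass the test (edgeR adjusted p = 0.207), and the count covers the whole gene, so that it checks the deletion only in part. Among markers of other cells, the red cell genes *Hba-a1* and *Hbb-bs* were called higher in NOX4-deficient muscle, and the summed blood markers ran from 70.9 to 159 CPM against 48.2 to 53.1 CPM in control. Of 7 endothelial markers *Vwf* was called higher (log2 fold change 0.74), and the other 6 were not called, with a median of 0.11 over the list. All 8 slow-fiber markers had positive log2 fold changes (0.39 to 1.14, median 0.64), with summed levels from 336 to 729 CPM in control and from 428 to 1250 CPM in NOX4-deficient libraries. The 4 nerve and Schwann cell markers tested were positive as well (0.08 to 0.88), with summed levels from 27.5 to 44.7 CPM and from 37.1 to 94.6 CPM. No gene of these lists, nor of the fast-fiber, adipocyte, immune, fibroblast or satellite cell lists, was called. The part of these markers in the values of the core genes was not tested.

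Each gene is given below by its level in every library, in CPM scaled by edgeR's TMM factors, and by its log2 fold change, NOX4-deficient over control. A gene was called when edgeR's quasi-likelihood test gave a Benjamini-Hochberg adjusted p-value under 0.05 and the log2 fold change exceeded 0.5 in size. By this rule *Igf1r*, *Irs1* and *Pdpk1* were lower in NOX4-deficient muscle and no core gene was higher. These are 3 of 10 genes, where 3.48% of all rows tested were called lower and 2.68% higher. This edgeR count was 1 without control replicate 4 and without NOX4-deficient replicate 1 or 3, and 4 without NOX4-deficient replicate 2. DESeq2 and pydeseq2 each called 5 core genes lower and none higher, with 579 and 576 of all rows called lower. An unadjusted edgeR p under 0.05 was reached by 8 of the 10 genes, none of them higher, against 23.2% of all rows tested. The log2 fold change was negative in 9 of the 10, all but *Grb10*, with a median of -0.63 against 0.014 over all rows tested, of which 47.7% were negative. In 4 of the 10 genes, *Igf1r*, *Irs2*, *Pdpk1* and *Akt2*, every NOX4-deficient library lay below every control library, where the genotypes did not overlap in 16.2% of all rows tested. In each of these 4 genes the two-sided exact permutation p was 0.0286, the smallest that 4 mice against 4 allow. That value follows from the lack of overlap and adds no support to it. In bulk tissue, fewer cells of a type and less RNA per cell cannot be told apart.

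**Figure D1:**
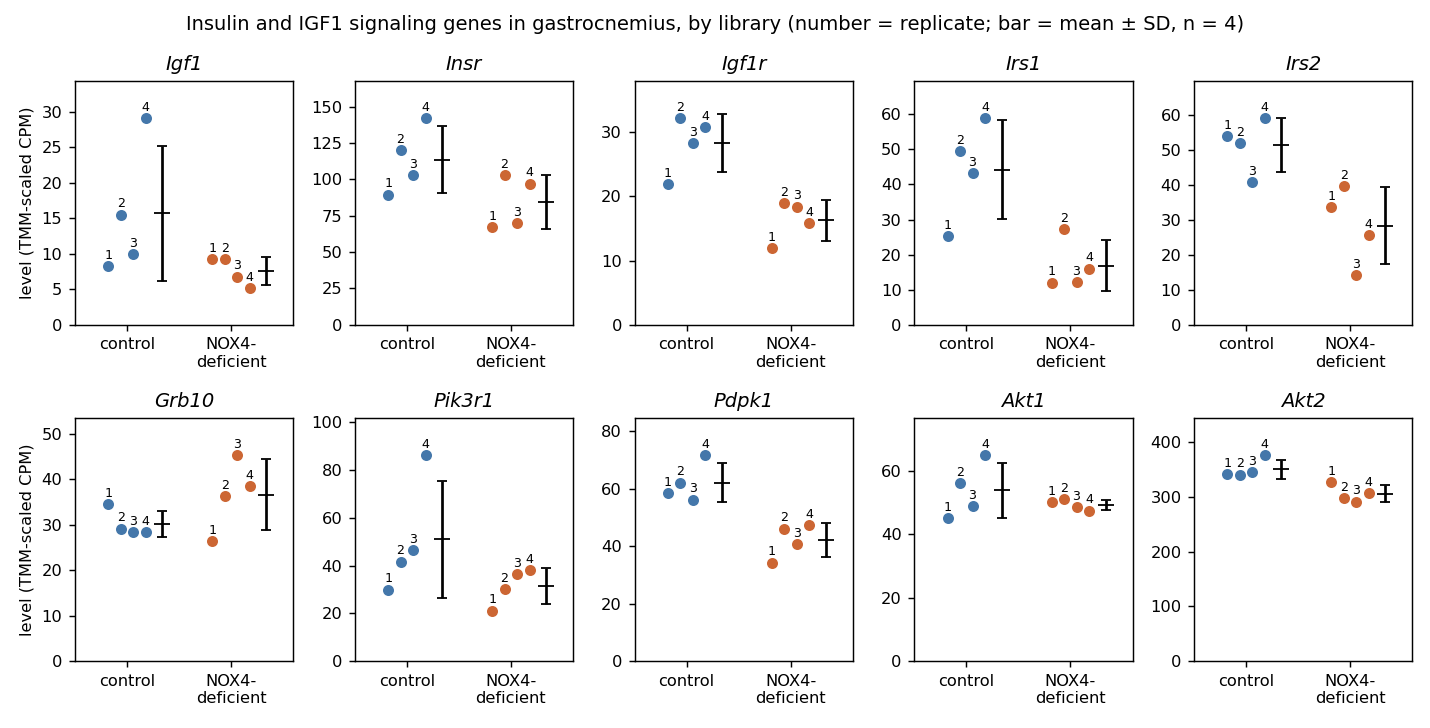
Level of each core gene in TMM-scaled CPM (vertical axes, starting at 0) in the 4 control (blue) and 4 NOX4-deficient (orange) libraries, with the replicate number above each point and the mean ± SD as a black bar. The genotypes are apart in Igf1r, Irs2, Pdpk1 and Akt2 and overlap in the other genes.

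*Igf1* encodes the growth factor that binds the IGF1 receptor, and muscle makes it locally beside the supply from liver. Its level was 8.21, 15.5, 9.95 and 29.1 CPM in control replicates 1 to 4, and 9.2, 9.25, 6.78 and 5.16 CPM in NOX4-deficient replicates 1 to 4. The control libraries thus differed among themselves by 3.54-fold, with replicate 4 at the top, and 2 NOX4-deficient libraries lay within their range. The means were 15.7 ± 9.45 CPM and 7.6 ± 1.99 CPM (mean ± SD of 4 mice each). The log2 fold change of -1.05 (standard error 0.38) was the second largest in size among the core genes and did not pass the test (edgeR adjusted p = 0.133). Without control replicate 4 it was -0.56. Markers of macrophages and other leukocytes, cells that can also make *Igf1*, summed to 31.8 to 81.7 CPM in control and 19.6 to 42.9 CPM in NOX4-deficient libraries, with 7 of the 8 markers tested negative and none called. Their part in the level of *Igf1* was not tested.

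*Insr*, the insulin receptor, and *Igf1r*, the IGF1 receptor, encode sister kinases that can also join as hybrids. *Igf1r* measured 21.9, 32.2, 28.3 and 30.8 CPM in the control mice, replicates 1 to 4, against 12, 19, 18.4 and 15.8 CPM in the NOX4-deficient mice. The highest NOX4-deficient library was below the lowest control library. The mean of 28.3 ± 4.56 CPM in control mice fell to 16.3 ± 3.2 CPM (mean ± SD of 4 mice each), a log2 fold change of -0.79 with a 95% interval from -1.15 to -0.44 (edgeR adjusted p = 0.0137). *Igf1r* had the smallest p-value of the core, at rank 326 of all rows, and was the only core gene called in all 17 alternative fits, where its log2 fold change ran from -0.90 to -0.66.
*Insr* spanned 89.4 to 142 CPM among control libraries and 67.1 to 103 CPM in NOX4-deficient libraries, so that the genotypes overlapped. Its replicates 2 and 4 lay above replicates 1 and 3 within both genotypes, at 120 and 142 against 89.4 and 103 CPM in control and at 103 and 97.1 against 67.1 and 69.6 CPM in NOX4-deficient muscle. The mean was 114 ± 22.7 CPM for control mice and 84.3 ± 18.6 CPM for NOX4-deficient mice (mean ± SD of 4 mice each). The log2 fold change of -0.43 (95% interval -0.80 to -0.06) did not pass the test over all genes (edgeR adjusted p = 0.152).
Whether the receptors changed unequally was tested on the log2 ratio of *Igf1r* to *Insr* counts within each library. The ratio was -2.03, -1.9, -1.87 and -2.21 in control replicates 1 to 4, and -2.49, -2.45, -1.92 and -2.62 in NOX4-deficient replicates 1 to 4. The mean difference, NOX4-deficient minus control, was -0.36, and 1 of the 4 NOX4-deficient libraries lay inside the control range. An exact two-sided permutation test gave p = 0.0857, or 0.257 after adjustment over the 3 pairs of related genes tested. With 4 mice against 4, a single pair could not go below an adjusted p of 0.0857, so that this test could not pass on 1 pair alone.

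*Irs1* and *Irs2* encode the docking proteins between the receptors and PI3-kinase. *Irs1* had the largest change in the core. It measured 25.3, 49.6, 43.2 and 58.9 CPM in the control mice, replicates 1 to 4, against 12, 27.3, 12.1 and 16 CPM in the NOX4-deficient mice. Only NOX4-deficient replicate 2 reached the control range, just above control replicate 1. The mean of 44.2 ± 14.2 CPM in control mice fell to 16.8 ± 7.19 CPM (mean ± SD of 4 mice each), a log2 fold change of -1.39 (95% interval -2.09 to -0.69, edgeR adjusted p = 0.0266). The call depended on which library was left out: it was made in 2 of the 8 fits that left out 1 library, and in the other 6 the adjusted p ran from 0.0551 to 0.0801 at a log2 fold change from -1.39 to -1.22. Those 6 were without control replicate 2, 3 or 4 or without NOX4-deficient replicate 1, 3 or 4.
*Irs2* measured 53.9, 51.8, 40.7 and 59 CPM in control replicates 1 to 4 and, in the NOX4-deficient mice, 33.6, 39.7, 14.2 and 25.7 CPM. The genotypes did not overlap, and NOX4-deficient replicate 3 was the lowest library by far. The mean was 51.4 ± 7.7 CPM for control mice and 28.3 ± 11 CPM for NOX4-deficient mice (mean ± SD of 4 mice each). The log2 fold change of -0.86 (95% interval -1.44 to -0.28) missed the threshold (edgeR adjusted p = 0.0757), and *Irs2* was called by DESeq2 (adjusted p = 0.00944) and by pydeseq2 (adjusted p = 0.00994).
The log2 ratio of *Irs2* to *Irs1* was 1.09, 0.06, -0.09 and 0 in control replicates 1 to 4 and 1.48, 0.54, 0.24 and 0.69 in NOX4-deficient replicates 1 to 4. The difference of 0.47 did not pass the test (exact two-sided permutation test p = 0.286, adjusted p = 0.429 over 3 pairs). It depended on single libraries. Without control replicate 1 the difference was 0.74, with an unadjusted p of 0.0571 by the same test. Without NOX4-deficient replicate 1 it was 0.22 (unadjusted p = 0.571). Both genotypes had their highest ratio in replicate 1.

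The sequences around the transcription starts of *Irs1* and *Irs2* are shown because these substrates had log2 fold changes of -1.39 and -0.86 and hold the same motifs. RefSeq windows on GRCm38.p6 (250 bases before the start and 50 from it on) matched 9 of the 10 core genes, all but *Insr*, with 16 windows among them. The windows were searched on both strands for an antioxidant response element (TGACNNNGC, the site read by NFE2L2 with small MAF proteins), an E-box (CACGTG), an insulin response sequence (TGTTTTG), a FOXO element (GTAAACA) and a cAMP response element (TGACGTCA). These motifs were picked after the windows had been looked at. The antioxidant response element, the E-box and the insulin response sequence each matched *Irs1* and *Irs2* and no other core gene, and in both genes they lay side by side or overlapped. The stretches follow 5′ to 3′ on the strand of the gene, with capitals from the first to the last base of the joined matches.
Irs1, chr1:82291529-82291576, minus strand: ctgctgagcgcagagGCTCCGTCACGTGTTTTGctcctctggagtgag
Irs2, chr8:11008945-11008995, minus strand: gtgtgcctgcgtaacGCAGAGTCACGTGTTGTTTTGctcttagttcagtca
The capitals begin 122 bases before the start of *Irs1* and end 105 bases before it, and they run from 51 to 31 bases before the start of *Irs2*. The antioxidant response element lies on the opposite strand in both and shares bases with the E-box, and in *Irs1* the E-box also shares bases with the insulin response sequence. The longest runs of bases common to both stretches are 10 bases long, gtcacgtgtt and tgttttgctc. Over 32851 windows of the same length, 12.4% held the antioxidant response element, 7.15% the E-box and 6.28% the insulin response sequence, and 4 windows of 3 genes held all 3 motifs within 30 bases. Those genes were *Irs1*, *Irs2* and *Fam214a*. Because the motifs were picked after the windows had been looked at, finding *Irs1* and *Irs2* among these genes is no test. The FOXO element (3.65% of windows) matched *Akt1*, and the cAMP response element (1.79%) matched no core gene. A match describes letters in the window, and binding was not measured here.

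*Grb10* encodes an adaptor that binds the activated receptors and damps their signal. It was the only core gene with a positive log2 fold change. Its level was 34.6, 29.2, 28.5 and 28.5 CPM in control replicates 1 to 4 and 26.4, 36.4, 45.4 and 38.5 CPM in NOX4-deficient replicates 1 to 4. In NOX4-deficient muscle 3 libraries lay above all control libraries and 1 lay below them. The means were 30.2 ± 2.95 CPM and 36.6 ± 7.86 CPM, and the log2 fold change was 0.28 (95% interval -0.05 to 0.61, edgeR adjusted p = 0.291).

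*Pik3r1* encodes regulatory subunits of PI3-kinase (p85-alpha and its shorter forms, which a count per gene does not separate). It measured 30, 41.7, 46.3 and 86.2 CPM in the control mice, replicates 1 to 4, against 21.2, 30.2, 36.3 and 38.2 CPM in the NOX4-deficient mice. Control replicate 4 was far above the others, and 1 NOX4-deficient library lay below all controls. The means were 51.1 ± 24.4 CPM and 31.5 ± 7.62 CPM (mean ± SD of 4 mice each). The log2 fold change of -0.70 (95% interval -1.38 to -0.02) did not pass the test (edgeR adjusted p = 0.206) and was -0.32 without control replicate 4.

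*Pdpk1* encodes PDK1, the kinase that phosphorylates the activation loop of AKT. It measured 58.4, 62.1, 56.2 and 71.7 CPM in the control mice, replicates 1 to 4, against 34.3, 46.1, 40.6 and 47.3 CPM in the NOX4-deficient mice. The genotypes were apart, with 47.3 CPM as the highest NOX4-deficient and 56.2 CPM as the lowest control value. The mean of 62.1 ± 6.85 CPM in control mice fell to 42.1 ± 5.93 CPM (mean ± SD of 4 mice each), and the fitted level fell by 32.3% (log2 fold change -0.56, 95% interval -0.83 to -0.29, edgeR adjusted p = 0.0184). The change lay close to the minimum fold, and the call was made in 5 of the 8 fits without 1 library. The adjusted p was 0.0517 without control replicate 4 and 0.0509 without NOX4-deficient replicate 3, and the log2 fold change was -0.47 without NOX4-deficient replicate 1.

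*Akt1* and *Akt2* encode the AKT kinases at the end of the core, of which AKT2 is the form tied most closely to glucose uptake in muscle. *Akt2* measured 341, 340, 344 and 376 CPM in the control mice, replicates 1 to 4, against 326, 297, 291 and 306 CPM in the NOX4-deficient mice. The genotypes were apart, and the spread was the smallest of the core in control muscle (coefficient of variation 4.89%). The means were 350 ± 17.1 CPM and 305 ± 15.5 CPM (mean ± SD of 4 mice each), a difference of -0.20 on the log2 scale (95% interval -0.40 to -0.003) that did not pass the test over all genes (edgeR adjusted p = 0.208). *Akt1* spanned 45.2 to 65 CPM among control libraries and 47.5 to 51 CPM in NOX4-deficient libraries, which all lay inside the control range. Its log2 fold change was -0.13 (95% interval -0.38 to 0.13, edgeR adjusted p = 0.565), so that a decrease of *Akt1* beyond -0.38 lay outside the interval. The log2 ratio of *Akt2* to *Akt1* was 2.72 ± 0.18 in control and 2.63 ± 0.08 in NOX4-deficient muscle (mean ± SD of 4 mice each). An exact two-sided permutation test of the ratio gave p = 0.429 before and after adjustment over 3 pairs.

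**Figure D2:**
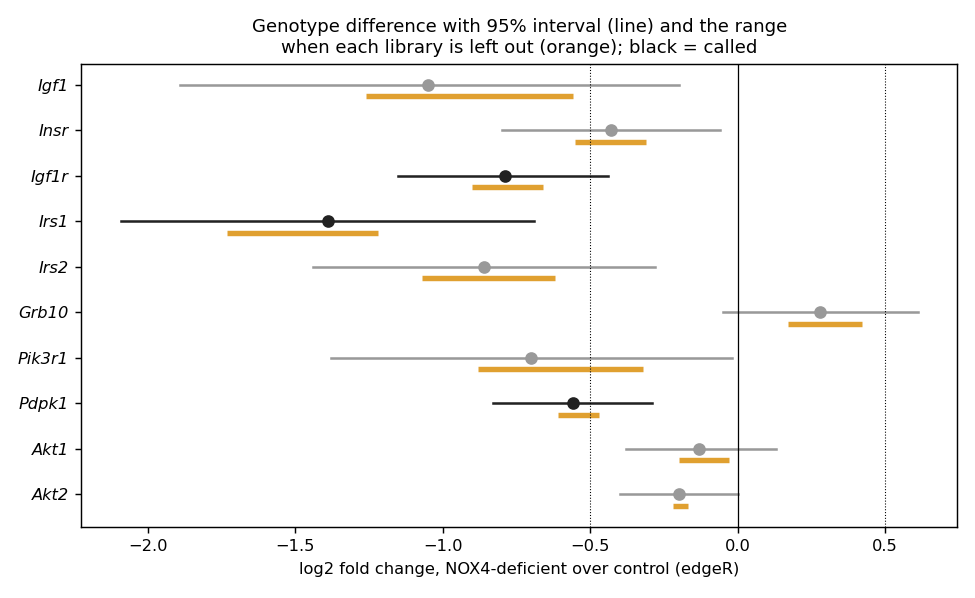
Log2 fold change of each core gene, NOX4-deficient over control (horizontal axis), with its 95% interval as a line and the range over the 8 fits that each left out 1 library in orange; black marks genes called by edgeR, and dotted lines the minimum fold change of 0.5 in size. Igf1r, Irs1 and Pdpk1 are black, and the orange ranges of Igf1 (-1.26 to -0.56) and Pik3r1 (-0.88 to -0.32) are wide.

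Levels of different genes were compared only per length, as CPM per kilobase of the longest GENCODE M21 transcript of the gene. On this scale *Akt2* was highest in control muscle (77.1 ± 3.77 CPM per kilobase) and *Akt1* next (20 ± 3.25 CPM per kilobase), and both stood apart from the gene below them in every library. *Insr* (12.2 ± 2.43), *Pdpk1* (8.67 ± 0.957), *Irs2* (8.12 ± 1.22), *Pik3r1* (7.18 ± 3.43), *Grb10* (5.97 ± 0.582), *Irs1* (4.84 ± 1.55), *Igf1r* (2.48 ± 0.4) and *Igf1* (2.22 ± 1.34) followed in CPM per kilobase (mean ± SD of 4 mice each), and the libraries of each overlapped those of the next. In NOX4-deficient muscle *Akt2* and *Akt1* again led, at 67.1 ± 3.41 and 18.3 ± 0.59 CPM per kilobase. *Grb10* moved up from place 7 to place 4 there with 7.24 ± 1.55 CPM per kilobase, after *Insr* with 9.01 ± 1.99, and the libraries of these neighbours overlapped. *Irs1* (1.84 ± 0.786 CPM per kilobase), *Igf1r* (1.43 ± 0.28) and *Igf1* (1.08 ± 0.283) were the lowest. The highest *Irs1* library (2.98 CPM per kilobase) lay barely below the lowest library (2.99) of *Pik3r1* (4.43 ± 1.07), the gene above it.

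The same libraries were often at the ends of their genotype's range. Control replicate 4 was the highest control library in 8 of the 10 genes, against 30.6% of all rows tested. Control replicate 1 was the lowest control library in 6 genes (26.4% of all rows). Within the other genotype, NOX4-deficient replicate 1 was the lowest in 6 (27.1% of all rows) and NOX4-deficient replicate 2 the highest in 6 (28.6% of all rows). Replicates 2 and 4 lay above replicates 1 and 3 in both genotypes for *Insr*, *Irs1* and *Pdpk1*, 3 of the 10 genes, against 9.43% of all rows. After the genotype means were removed, the log2 CPM of *Insr* and *Irs1* had a Pearson correlation of 0.91, that of *Insr* and *Pdpk1* 0.88 and that of *Igf1* and *Akt1* 0.96, over the same 8 libraries. *Grb10* ran the other way from *Akt2* (-0.74) and *Irs2* (-0.58). These correlations describe 8 libraries that share their depth and scaling, and were not tested.

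**Figure D3:**
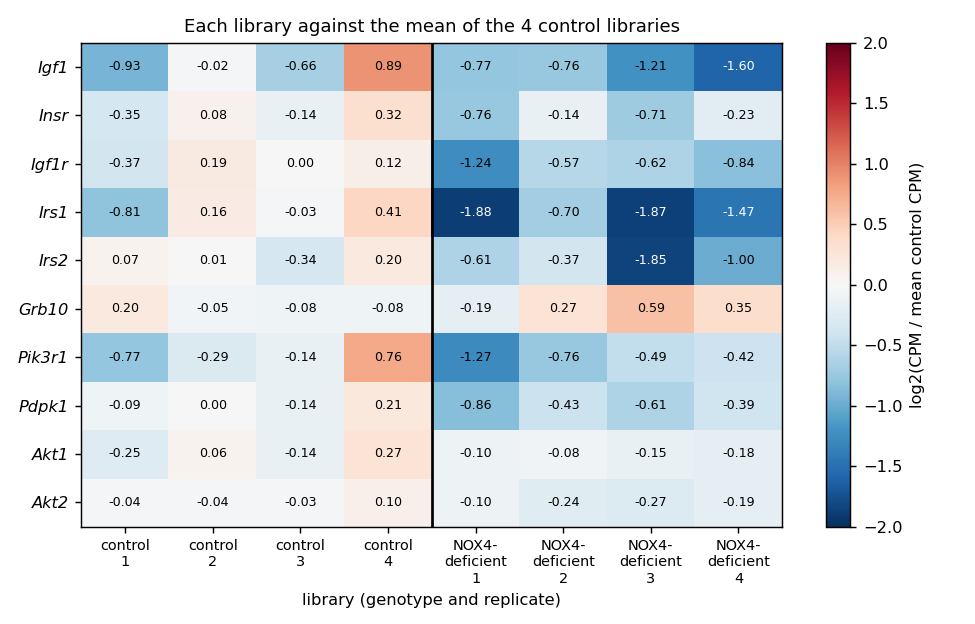
Log2 of each library's CPM over the mean control CPM of the same gene (color, blue below and red above), with the core genes as rows and the 8 libraries as columns. The bluest cells are Irs1 in NOX4-deficient replicates 1 (-1.88) and 3 (-1.87) and Irs2 in NOX4-deficient replicate 3 (-1.85), while Igf1 (0.89) and Pik3r1 (0.76) are reddest in control replicate 4.

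The genes whose log2 CPM ran most like that of *Igf1r* over the 8 libraries were *Zbtb7a* (Pearson correlation 0.984), *Crebbp* (0.977) and *Sgk3* (0.97), and for *Pdpk1* they were *Cnot4* (0.99), *Bclaf1* (0.99) and *Bach1* (0.989). *Bach1* encodes a repressor that competes with NFE2L2 for antioxidant response elements, and *Sgk3* a kinase that PDK1 activates. With the genotype means removed, the 3 closest were *Tnik* (0.987), *Wnk3* (0.982) and *Proser1* (0.967) for *Igf1r* and *Pals1* (0.992), *Mfsd4b4* (0.991) and *Rock2* (0.991) for *Pdpk1*. No gene appeared on both lists of either gene.

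Around the core, 90 further genes of the pathway were listed by role, of which 82 were tested. By edgeR 12 were called lower and 3 higher, beside the 3.48% and 2.68% of all rows given above, and their median log2 fold change was -0.04. Of 10 transcripts known to respond to insulin or FOXO, 6 were called lower and 1 higher, with a median of -0.79. These 10 were listed with earlier results of the data known, and their share was not tested against that of other roles. The 9 other adaptors and substrates tested had a median of 0.14 and none called.
Among the transcripts that FOXO factors are known to raise in muscle, the ubiquitin ligase genes *Trim63* (log2 fold change -2.18) and *Fbxo32* (-1.62) and the autophagy genes *Gabarapl1* (-1.58) and *Bnip3* (-0.87) were lower. *Trim63* spanned 563 to 1660 CPM among control libraries and 192 to 247 CPM in NOX4-deficient libraries. Control replicate 4 was the highest control library in each of these genes. It measured 1690 CPM against 737 to 860 CPM in the other controls for *Fbxo32*. For *Bnip3* it measured 440 against 257 to 312 CPM, and for *Gabarapl1* 166 against 123 to 156 CPM. *Pdk4*, the kinase that shuts pyruvate dehydrogenase in fasting, fell from 1870 ± 324 CPM to 645 ± 321 CPM (mean ± SD of 4 mice each), and *Klf15*, a regulator of amino acid breakdown, was lower by 0.72 on the log2 scale. *Srebf1*, the lipogenic factor that insulin induces, was higher (0.97), from 17.3 ± 2.14 CPM to 33.9 ± 8.58 CPM (mean ± SD of 4 mice each). The 3 members of this list that were not called, *Hk2*, *Ccng2* and *Sesn3*, had log2 fold changes of 0.08, -0.31 and 0.48. The 7 called genes of this list had adjusted p-values in edgeR from 4.41e-05 to 0.0288.

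Of 6 IGF binding proteins and partners tested, *Igfbp5*, a binding protein made by muscle, rose from 237 ± 27.7 CPM to 641 ± 185 CPM (mean ± SD of 4 mice each). It measured 206, 244, 271 and 226 CPM in control replicates 1 to 4 and, in the NOX4-deficient mice, 441, 887, 599 and 638 CPM, so that the genotypes were far apart (log2 fold change 1.44, edgeR adjusted p = 9.84e-04). The other 5 were not called.
Among 10 other brakes of the receptors, the ubiquitin ligase gene *Cblb* (-0.94, from 31.2 ± 5.61 to 16.2 ± 3.84 CPM) and *Socs3*, which blocks the receptors and their substrates (-1.02, from 2.94 ± 0.639 to 1.45 ± 0.241 CPM, SD, n = 4 each), were called lower. The 8 not called ran from -0.36 (*Ptpn2*) to 0.90 (*Ptprf*) on the log2 scale. The genotypes did not overlap in 5 of the 10, against the 16.2% of all rows given above.
The other genes of PI3-kinase included 1 that was called, *Pik3cd*, a catalytic subunit best known from leukocytes, which was higher (0.87, from 9.07 ± 1.89 to 16.6 ± 1.86 CPM, SD, n = 4 each). The macrophage and leukocyte markers had a median log2 fold change of -0.45, with 7 of the 8 tested negative and none called. Their part in the level of *Pik3cd* was not tested. *Ppp2ca*, the catalytic subunit of the phosphatase PP2A, which removes phosphate from AKT, fell by 0.54 on the log2 scale (edgeR adjusted p = 0.00496).
Downstream, *Tbc1d1*, an AKT and AMPK substrate in glucose transporter traffic, was lower (-1.04), from 161 ± 16.5 CPM to 78 ± 17.5 CPM (mean ± SD of 4 mice each). *Eif4ebp1*, the translational repressor that mTORC1 phosphorylates, was lower too (-1.36), from 63.7 ± 23.6 CPM to 24.8 ± 4.83 CPM. These were the only calls among the 11 AKT substrates and the 13 genes of the ribosomal S6 and MAPK branch tested, whose medians were -0.02 and 0.06.

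**Figure D4:**
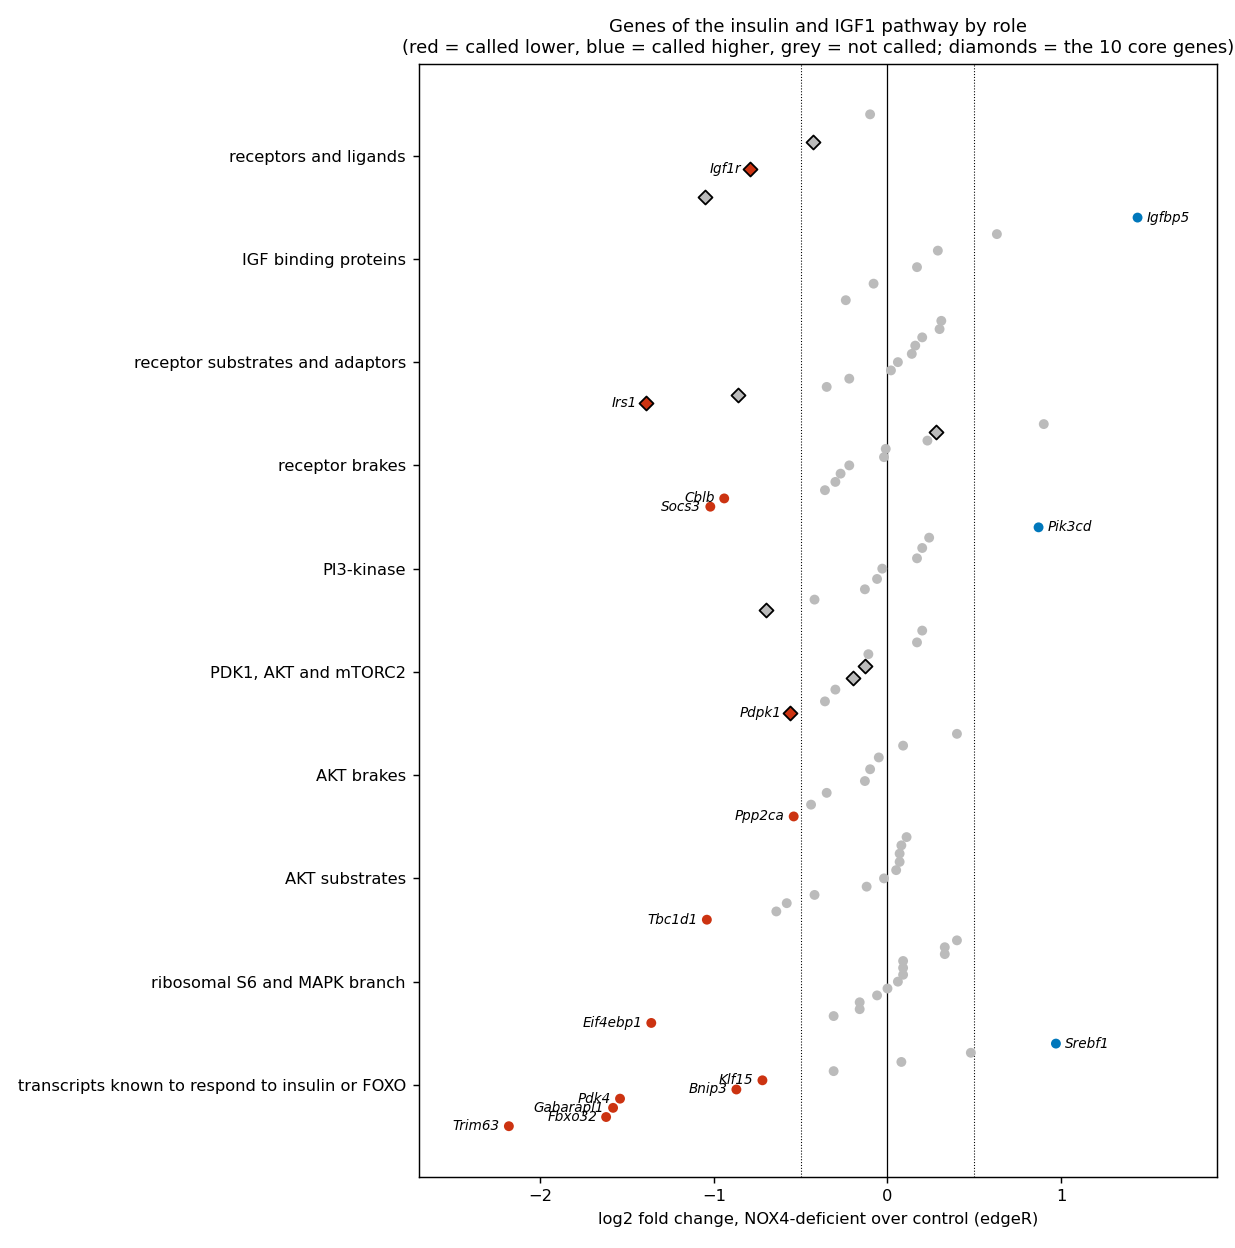
Log2 fold change, NOX4-deficient over control (horizontal axis), of the tested pathway genes reported here, in rows by role; diamonds are the core genes, red marks genes called lower, blue genes called higher and grey genes not called by edgeR, and dotted lines the minimum fold change of 0.5 in size. In the bottom row, transcripts known to respond to insulin or FOXO, 6 of 10 points are red, and the blue points are Igfbp5, Pik3cd and Srebf1.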

How the data were processed

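RNA from gastrocnemius of 8 mice was purified on columns, and poly(A)-selected, unstranded libraries were read as pairs. Per the study's methods, an nf-core pipeline turned reads into a feature count matrix, and the submitters' processing notes name STAR and GRCm39; annotation and counter settings are not given in the sources used here. The authors deposited raw counts per gene symbol, without normalization. A repeated symbol stands for its row with most counts.

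The main test was that of edgeR 4.0.16, run in R 4.3.3 (TMM, filterByExpr, robust glmQLFit, glmQLFTest; genotype as the only term, all 8 samples), with Benjamini-Hochberg adjustment over 12725 rows. Standard errors are the log2 fold change over the square root of F, and 95% intervals use the fit's degrees of freedom. Calls required an adjusted p under 0.05 and a log2 fold change over 0.5 in size, the study's thresholds. The fit was tested on simulated data. Exact permutation tests used scipy 1.17.1. DESeq2 1.42.0 and pydeseq2 0.5.4, other scalings and filters, a replicate block and leaving out each library were alternatives. Chi-square per degree of freedom between replicates was 12.6 or more, so that all replicates differed beyond sampling noise.

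Genes named in the text were the 10 members, *Nox4*, the 12 further pathway genes with the smallest p-values among those called, and the genes most like the 2 members with the smallest p-values. *Socs3*, *Pdk4*, *Hk2*, *Ccng2*, *Sesn3*, *Ptpn2*, *Ptprf*, *Fam214a* and the markers *Hba-a1*, *Hbb-bs* and *Vwf* were added after their values were seen. The values of 1 further pathway gene are not reported here, though it is in the counts. The members and lists were chosen with earlier results of these data known. Libraries are unstranded, but no gene with more than 27 counts in all libraries overlaps an exon of a member in GENCODE M21. Promoter windows came from RefSeq on GRCm38.p6 and were matched by symbol.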

Additional observations from a re-analysis of the deposited data

Results flagged for a closer look

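Over the 10 core genes and the 3 ratios, 26 groups of 4 libraries were checked for a library whose gap to its nearest neighbour exceeded Dixon's 95% critical value as a share of the range of the group, and about 1 in 20 groups passes this by chance. *Grb10* was set apart in control replicate 1, at 34.6 CPM (gap 0.875 of the range). *Akt2* was set apart in control replicate 4, at 376 CPM (0.866). The log2 ratio of *Irs2* to *Irs1* was set apart in control replicate 1, at 1.09 (0.872).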

How the results depend on the processing

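No member changed direction under any of the 17 alternatives, and *Igf1r* was called in all of them. The number of members called lower was 3 and moved to 5 with DESeq2 and with pydeseq2, which both added *Igf1* (adjusted p = 0.0241 and 0.025) and *Irs2*, and none was called higher under any alternative. It also moved to 5 with the replicate number as a replicate block, which added *Irs2* and *Pik3r1*. Libraries of the same number had correlations from 0.04 to 0.22 between genotypes, and 2 of 8 were most like their own number. With the block, 543 of all rows were called lower, against 443 in the main fit. The labels do not say whether the numbers pair mice, and what libraries of 1 number share was not tested. With each library left out in turn, between 1 and 4 members were called lower, with 1 without control replicate 4 and without NOX4-deficient replicate 1 or 3, and 4 without NOX4-deficient replicate 2. The rows called lower ranged from 295 to 425 and those called higher from 204 to 317 over the same fits, with the lowest of both without control replicate 4. Odd or even replicate number as a term was added after seeing the data, from the split in these genes' own values, and 3 members were called lower with it. The edgeR adjusted p of *Insr* was then 0.00747, and its log2 fold change of -0.44 missed the minimum fold. Over all rows 543 were called lower and 419 higher with this term, against 443 and 341 in the main fit. *Irs1* was not called without a filter on low counts (adjusted p = 0.113). The cause of these changes was not tested. At these depths, genes such as *Socs3* and *Nox4* rest on few reads, and how small a change could be detected there was not tested.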
